A study of Mus musculus with 24 samples.

Results

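The autophagy machinery was followed in mouse liver after partial ischemia, an operation that shuts off the blood flow to some lobes, lasting 30, 60 or 90 min. Its members were chosen by name, as 35 genes whose products start, build, load and regulate the autophagosome. Of these, 32 were each measured by 1 probe set, out of 14351 genes measured in all, and Atg4a, Atg16l2 and Pik3r4 had no matched probe set and were not analysed here. Liver RNA from the median and left lobes was hybridised to 24 Affymetrix expression arrays. The 8 groups of 3 arrays were ischemic livers of adult mice, 12 to 14 months old, at 30, 60 and 90 min, sham-operated adult livers, ischemic livers of young mice, 4 to 5 weeks old, at the same times, and sham-operated young livers. Strain and sex were not given in the sources used here. The titles write the times as 30/0, 60/0 and 90/0, and the labels do not say what the second part stands for. Each deposited value is an array's ratio to its age-matched sham mean over 3 arrays, so sham liver averages 1 for every gene in either age. Levels of adult and young sham liver, levels of one gene against another, and the presence of tissue markers cannot be read from such ratios. They are bulk values, in which fewer cells of a type and less RNA per cell cannot be told apart.

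Autophagy encloses part of the cytoplasm in a double membrane and delivers it to the lysosome for breakdown, and in the liver it supplies amino acids and lipids during fasting and removes damaged mitochondria. The Ulk1 kinase complex starts the process, a lipid kinase complex around Becn1 marks the forming membrane, and ubiquitin-like conjugation attaches the Atg8-family proteins, such as the product of Map1lc3b, to it. Cargo receptors such as Sqstm1 then bind both the cargo and the Atg8 proteins, and the transcription factor Tfeb switches on autophagy and lysosome genes.

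Most members were lower in ischemic than in sham liver, by small amounts. The median log2 fold change of the 32 members in adults was -0.20 at 30 min, -0.19 at 60 min and -0.14 at 90 min, against -0.03, -0.05 and -0.04 for all genes. In young mice it was -0.19, -0.14 and -0.06, against -0.02 for all genes at each time. Values below 0 were found for 27, 26 and 23 members in adults and for 25, 26 and 19 in young mice. That is 71.9% to 84.4% of the members in adults, against 56.5% to 58.7% of all genes. In young mice it is 78.1% and 81.2% at 30 and 60 min, against 56.6% and 55.3% of all genes, while at 90 min the 59.4% of the members lay near the 57.6% of all genes. Averaged over the members, every ischemic adult array was lower, at mean log2 ratios of -0.28 to -0.08, than the adult sham arrays, at -0.06 to 0.07. In young mice the ischemic arrays lay between -0.28 and -0.03 and overlapped the sham arrays, which lay between -0.10 and 0.04. In all 6 comparisons of an ischemia group with sham, 13 members had values below 0. They were Atg4d, Atg12, Atg13, Atg14, Rb1cc1, Becn1, Pik3c3, Uvrag, Map1lc3b, Gabarap, Gabarapl1, Gabarapl2 and Sqstm1. Tfeb and Atg9b had values above 0 in all 6. The times of an age share their sham arrays, and the matching count over all genes was not made. With arrays centred on their median, or after quantile normalization, 11 of the 13 stayed below 0 in all 6 comparisons, Atg4d and Atg13 being the exceptions, and Tfeb and Atg9b stayed above 0. After quantile normalization, values below 0 were left for 25, 23 and 19 members in adults and for 24, 23 and 19 in young mice.

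**Figure D1:**
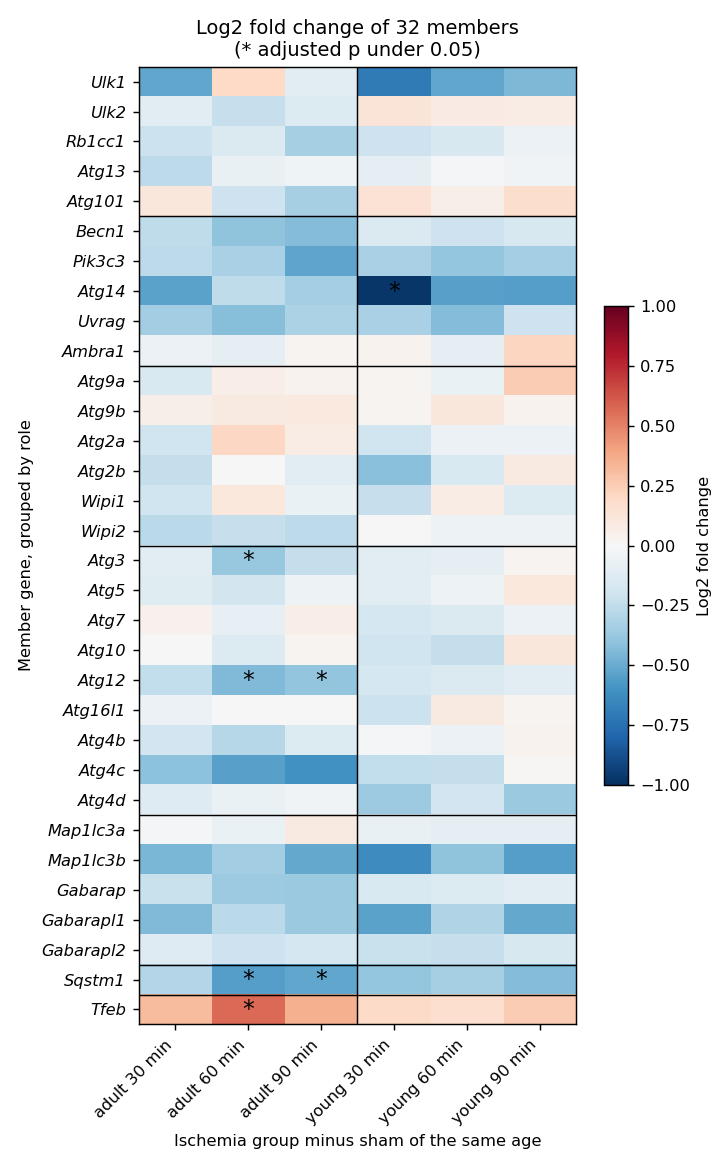
Colour gives the log2 fold change of each of the 32 members (rows, grouped by role) in each ischemia group against sham of the same age (columns, adult left, young right), with stars at an adjusted p under 0.05. Atg14, Map1lc3b and Sqstm1 are blue in all 6 columns, and Tfeb is red in all 6.

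Few single members passed the test, which was limma's moderated test with Benjamini-Hochberg adjustment over all 14351 genes and a threshold of 0.05. In adults at 60 min, 4 of 32 members passed (12.5%), Tfeb upward and Atg3, Atg12 and Sqstm1 downward, beside 11.9% of all genes. Adults at 90 min had 2 of 32 members passing (6.25%), Atg12 and Sqstm1, both downward, beside 7.45% of all genes. These shares lie near those of all genes. In adults at 30 min, 0 members and 0 of all genes passed (0%), while 6 members (18.8%) and 1486 genes (10.4%) had an unadjusted p under 0.05. In young mice, Atg14 passed at 30 min, downward, where 0.0557% of all genes passed. At 60 min 0 members passed beside 0.0279% of all genes, and at 90 min 0 members beside 0.181%, with 5 (15.6%) and 7 members (21.9%) at an unadjusted p under 0.05, against 10.4% and 9% of all genes. The 3 ischemic and 3 sham arrays did not overlap for 5, 11 and 11 members in adults at 30, 60 and 90 min, beside 11.5%, 37% and 39.1% of all genes. In young mice they did not overlap for 9, 5 and 6 members, beside 14.8%, 13.3% and 13.9%. Below, ischemic arrays lower than every sham array of their age are also counted for single members. The matching counts over all genes were not made, and all 9 ischemic arrays of an age are set against the same 3 sham arrays. Nothing in the labels says that the arrays of a group came from separate animals, so the p-values measure the spread between arrays, which may be technical.

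The promoters of Atg14, Atg3, Map1lc3b and Sqstm1 are printed here as examples of members that passed in a comparison below. Other members that passed, such as Atg12 in more comparisons than Atg3, are not shown. E-box letters, the kind of site bound by Tfeb, were looked for in all member promoters found. Each sequence is the RefSeq window (GRCm38.p6) from 250 bases before to 50 bases after the start site, 5′ to 3′ on the strand of the gene. Capitals mark the E-box CACGTG and, in Map1lc3b, the letters TGACNNNGC of the antioxidant response element core on the strand shown.
Atg14: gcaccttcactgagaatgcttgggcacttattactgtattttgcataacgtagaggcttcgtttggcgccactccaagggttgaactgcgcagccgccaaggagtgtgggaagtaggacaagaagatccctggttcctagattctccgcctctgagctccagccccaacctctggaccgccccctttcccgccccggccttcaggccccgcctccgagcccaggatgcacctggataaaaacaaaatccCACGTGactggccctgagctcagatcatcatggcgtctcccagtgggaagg
Atg3: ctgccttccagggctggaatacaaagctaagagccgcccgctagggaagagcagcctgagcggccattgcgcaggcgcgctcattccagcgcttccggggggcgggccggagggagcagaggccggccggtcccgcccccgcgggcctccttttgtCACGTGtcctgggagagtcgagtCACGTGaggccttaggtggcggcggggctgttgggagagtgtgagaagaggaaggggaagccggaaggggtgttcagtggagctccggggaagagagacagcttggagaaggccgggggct
Map1lc3b: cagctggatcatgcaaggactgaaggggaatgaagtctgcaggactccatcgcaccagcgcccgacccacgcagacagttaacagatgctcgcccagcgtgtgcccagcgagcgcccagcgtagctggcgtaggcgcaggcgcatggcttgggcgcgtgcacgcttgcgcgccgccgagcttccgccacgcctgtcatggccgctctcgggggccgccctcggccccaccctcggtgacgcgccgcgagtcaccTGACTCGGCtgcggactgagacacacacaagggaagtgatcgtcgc
Sqstm1: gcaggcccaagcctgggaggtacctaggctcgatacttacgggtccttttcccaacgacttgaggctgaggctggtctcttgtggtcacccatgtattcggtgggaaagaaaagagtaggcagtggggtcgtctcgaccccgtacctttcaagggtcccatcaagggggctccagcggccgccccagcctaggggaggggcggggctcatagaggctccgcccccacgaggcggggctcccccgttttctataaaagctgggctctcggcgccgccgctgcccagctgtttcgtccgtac
The Atg14 window lies at chr14:47568385-47568684 on the minus strand, that of Atg3 at chr16:45158579-45158878 on the plus strand, that of Map1lc3b at chr8:121590188-121590487 on the plus strand and that of Sqstm1 at chr11:50210771-50211070 on the minus strand. Windows were found for 26 of the 32 measured members, 29 windows in all. CACGTG, which reads the same on both strands, was in 4 of the 29, those of Atg14, Atg3, Atg5 and Atg7, and in 7.15% of 32851 promoters of the same length. The longer form TCACGTGA, which contains it, was in the Atg3 window only, and in 0.974% of all promoters. Searched on both strands, TGACNNNGC was in the windows of Atg13, Map1lc3b and Ulk2, and in 12.4% of all. GTAAACA, a letter string of FOXO sites, and TGANTCA, of AP-1 sites, were in 0 of the 29 windows, against 3.65% and 7.81% of all promoters. Of the genes with an E-box, Atg14 and Atg3 each fell in a comparison, while Atg5 lay between -0.18 and 0.11 and Atg7 between -0.17 and 0.06 in log2 fold change over the 6 comparisons. Windows without CACGTG include those of Map1lc3b and Sqstm1, which also fell in a comparison. Whether these letters go with a change was not tested.

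In the initiating kinase complex 0 of 5 measured members passed limma's test in any of the 6 comparisons, and 3 of its 30 tests had an unadjusted p under 0.05. Of all genes, 8.36% to 33.3% had an unadjusted p under 0.05 in a comparison, with 33.3% and 28.6% in adults at 60 and 90 min. The times of an age share their sham arrays, so the 30 tests of the complex are not independent. Ulk1, its kinase, had ratios of 0.727, 0.893 and 0.488 at 30 min, 1.37, 1.08 and 0.957 at 60 min and 0.896, 0.725 and 1.12 at 90 min in adults, against 1.33, 0.84 and 0.832 in adult sham. In young mice Ulk1 had ratios of 0.621, 0.566 and 0.542 at 30 min, 0.576, 0.786 and 0.621 at 60 min and 0.589, 0.806 and 0.687 at 90 min, against 1.16, 1.28 and 0.555 in young sham. All 9 ischemic arrays of young mice were thus lower than 2 sham arrays, while the third sham array stood among the lowest of them. Ulk1's log2 fold change in young mice was -0.71 ± 0.27 at 30 min (SE, adjusted p = 0.429), -0.52 at 60 min and -0.45 at 90 min. Adult values were -0.52, 0.20 and -0.12. Rb1cc1, the scaffold of the complex, ranged from -0.33 in adults at 90 min to -0.06 in young mice at 90 min. Atg13, a subunit that binds the kinase, ranged from -0.26 to -0.02, Ulk2, the second kinase, from -0.23 to 0.13, and Atg101, the partner of Atg13, from -0.33 to 0.18.

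In the lipid kinase complex, Atg14, the subunit that brings the complex to the site of autophagosome formation, had the lowest log2 fold changes of the 5 measured members in young mice and in adults at 30 min, but not in adults at 60 and 90 min. Atg14 ratios in adults were 0.604, 0.788 and 0.675 at 30 min, 0.851, 0.75 and 0.899 at 60 min and 0.787, 0.66 and 0.926 at 90 min, against 1.1, 0.832 and 1.07 in sham. The young ratios were 0.406, 0.513 and 0.618 at 30 min, 0.626, 0.703 and 0.719 at 60 min and 0.568, 0.733 and 0.75 at 90 min, against 0.921, 0.892 and 1.19 in sham. All 9 ischemic young arrays were lower than every young sham array, as were 6 of 9 adult arrays against adult sham. Atg14 fell in young mice at 30 min by 0.97 ± 0.16 on the log2 scale (SE; adjusted p = 0.0180). That call was lost without young sham replicate 3 (adjusted p = 0.0799), without replicate 1 of young mice at 30 min (0.193) or without replicate 2 (0.0672), and after quantile normalization (0.0965) or on the linear ratio (0.0579). Its log2 fold change stayed between -1.12 and -0.82 with any of the 6 arrays left out. Atg14 did not pass at the other times, with -0.54 (adjusted p = 0.260) at 60 min and -0.55 (0.213) at 90 min in young mice. In adults it was -0.53 (0.411) at 30 min, -0.26 (0.284) at 60 min and -0.34 (0.177) at 90 min.

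Becn1, the core subunit of the lipid kinase complex, stood closer to sham in young than in adult mice. Its adult ratios were 0.667, 0.779 and 1.14 at 30 min, 0.814, 0.744 and 0.715 at 60 min and 0.718, 0.749 and 0.755 at 90 min, against 1.05, 0.93 and 1.02 in sham. In young mice Becn1 had 0.887, 0.954 and 0.86 at 30 min, 0.798, 0.873 and 0.905 at 60 min and 0.979, 0.884 and 0.81 at 90 min, against 0.856, 0.975 and 1.17 in sham. Lower than every sham array of the same age were 8 of 9 ischemic adult arrays, among them all 6 at 60 and 90 min, and 2 of 9 young ones. The remaining adult array, at 30 min, was higher than every adult sham array. Sham arrays spanned 0.93 to 1.05 in adults and a wider 0.856 to 1.17 in young mice. The log2 fold change was -0.40 (adjusted p = 0.0627) at 60 min and -0.43 (0.0632) at 90 min in adults, which did not pass, and -0.21 and -0.16 in young mice. The difference between the ages was -0.19 at 60 min, with a 95% interval of -0.61 to 0.22, and -0.27 at 90 min, with an interval of -0.69 to 0.14, and did not pass either.

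Pik3c3, the catalytic subunit that makes phosphatidylinositol 3-phosphate, had adult ratios of 0.688, 0.754 and 1.1 at 30 min, 0.892, 0.848 and 0.661 at 60 min and 0.646, 0.712 and 0.704 at 90 min, against 1.15, 0.843 and 1.01 in sham. In young mice Pik3c3 had 0.766, 0.81 and 0.782 at 30 min, 0.626, 0.85 and 0.805 at 60 min and 0.669, 0.803 and 0.869 at 90 min, against 0.814, 0.943 and 1.24 in sham. Lower than every sham array of the same age were 6 of 9 adult and 7 of 9 young ischemic arrays, and its log2 fold change ranged from -0.53 in adults at 90 min to -0.26 in adults at 30 min. Uvrag, which takes the complex to endosomes, had adult ratios of 0.682, 0.707 and 0.982 at 30 min, 0.825, 0.722 and 0.676 at 60 min and 0.816, 0.827 and 0.752 at 90 min, against 1.15, 0.902 and 0.948 in sham. In young mice Uvrag had 0.831, 0.805 and 0.728 at 30 min, 0.656, 0.685 and 0.872 at 60 min and 0.861, 0.925 and 0.786 at 90 min, against 0.813, 0.958 and 1.23 in sham. Here 8 of 9 adult and 5 of 9 young ischemic arrays were lower than every sham array, and the log2 fold change ranged from -0.43 to -0.20. Neither gene passed at a single time. Ambra1, a binding partner of Becn1, ranged from -0.10 to 0.22.

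**Figure D2:**
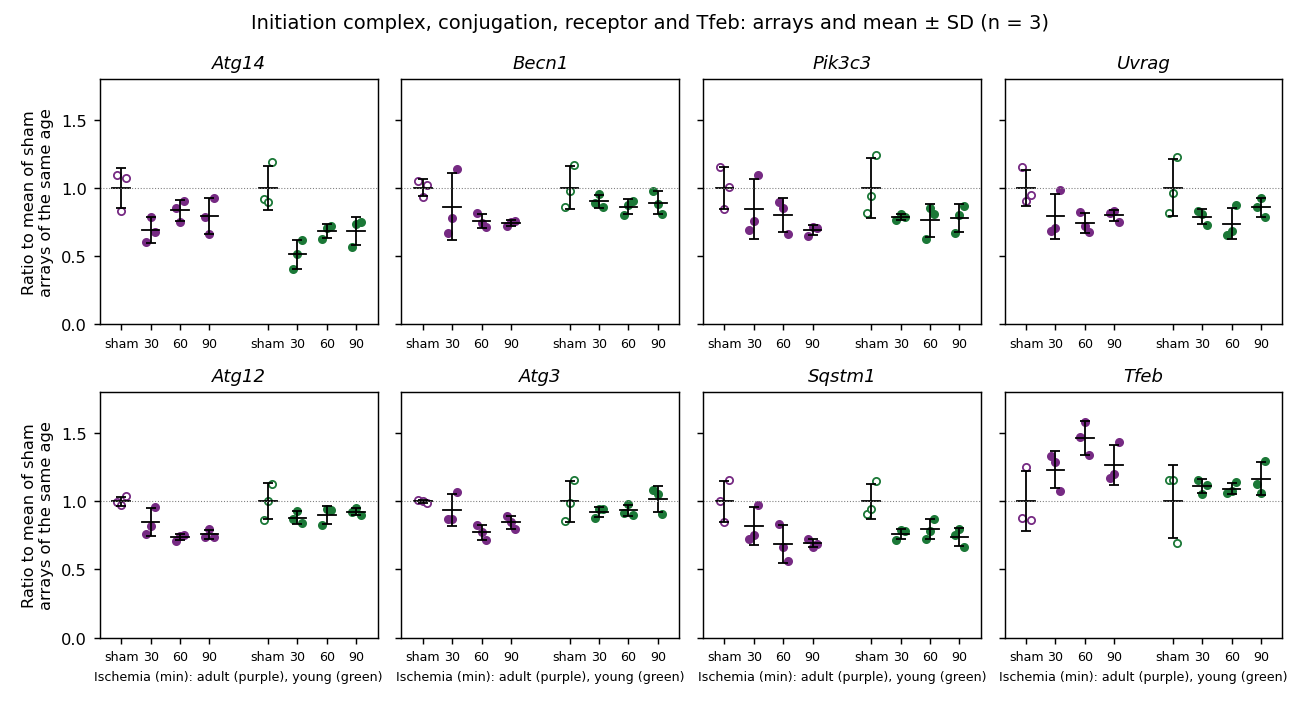
Each panel gives the ratio to the sham mean of that age (y axis) for every array by ischemia time in min (x axis), with adult mice in purple on the left and young mice in green on the right, sham as open circles, and bars for mean ± SD (n = 3). Atg14 in young mice lies between 0.406 and 0.75 in the 9 ischemic arrays, and Tfeb in adults at 60 min lies between 1.34 and 1.58, higher than every adult sham array.

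Genes that supply membrane to the autophagosome, or recognise it, gave 0 of 6 members past limma's test in any of the 6 comparisons with sham, and 2 of their 36 tests had an unadjusted p under 0.05. Of all genes, 8.36% to 33.3% had such a p in a comparison. Atg9a and Atg9b, lipid scramblases that travel in vesicles, ranged from -0.15 to 0.25 and from 0.03 to 0.11. Atg9a was higher in all 3 ischemic arrays of young mice at 90 min, at 1.16, 1.23 and 1.18, than in the 3 young sham arrays, at 1.01, 1.02 and 0.966. Atg2a and Atg2b, which carry lipid into the membrane, ranged from -0.20 to 0.21 and from -0.42 to 0.09. Wipi1 and Wipi2, which read the lipid made by Pik3c3, ranged from -0.23 to 0.10 and from -0.27 to 0.01.

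Among the conjugation genes, Atg12 and Atg3 fell in adults. Atg12 encodes the ubiquitin-like protein that is joined to the product of Atg5. Its adult ratios were 0.759, 0.818 and 0.959 at 30 min, 0.712, 0.746 and 0.75 at 60 min and 0.737, 0.798 and 0.742 at 90 min, against 0.992, 0.972 and 1.04 in sham, so that all 9 ischemic arrays were lower than every sham array. In young mice they were 0.868, 0.932 and 0.838 at 30 min, 0.825, 0.945 and 0.933 at 60 min and 0.921, 0.952 and 0.902 at 90 min, against 0.866, 1.00 and 1.13 in sham, and 2 of 9 arrays were lower than every sham array. Adult Atg12 fell by 0.44 ± 0.10 on the log2 scale at 60 min (SE; adjusted p = 0.0282) and by 0.40 ± 0.10 at 90 min (adjusted p = 0.0246). Atg12 had -0.14 and -0.10 in young mice at these times, and the difference between the ages was -0.30 at 60 min (95% interval -0.58 to -0.02, adjusted p = 0.704) and -0.29 at 90 min (-0.57 to -0.01, adjusted p = 0.439). Atg3, the enzyme that transfers Atg8 proteins to lipid, had adult ratios of 0.871, 0.867 and 1.07 at 30 min, 0.828, 0.776 and 0.713 at 60 min and 0.893, 0.848 and 0.8 at 90 min, against 1.01, 1.00 and 0.987 in sham. In young mice Atg3 had 0.881, 0.946 and 0.946 at 30 min, 0.918, 0.981 and 0.902 at 60 min and 1.08, 1.06 and 0.91 at 90 min, against 0.858, 0.987 and 1.15 in sham, and the groups overlapped. Adult Atg3 fell by 0.38 ± 0.10 at 60 min (SE; adjusted p = 0.0343).

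Of the other 7 conjugation enzymes and proteases, 0 passed limma's test at any time, and 6 of their 42 tests had an unadjusted p under 0.05. That was so for 8.36% to 33.3% of all genes in a comparison. Atg5 and Atg7, given above, are the partner of Atg12 and the activating enzyme of both conjugation routes. Atg10, the transfer enzyme for Atg12, ranged from -0.24 to 0.11 and Atg16l1, which places the conjugate on the membrane, from -0.21 to 0.09. The Atg4 proteases, which trim Atg8 proteins before conjugation and free them from lipid afterwards, were mostly below sham. Atg4b ranged from -0.28 to 0.04 and was lower than every sham array in 9 of 9 ischemic adult arrays but in 0 of 9 young arrays. Its adult sham arrays lay close together, at 0.985 to 1.03, and its young sham arrays further apart, at 0.86 to 1.19. Atg4d had adult ratios of 0.873, 0.895 and 0.967 at 30 min, 0.881, 0.949 and 1.04 at 60 min and 0.963, 0.949 and 1.02 at 90 min, against 1.02, 1.05 and 0.927 in sham. Its young ratios were 0.748, 0.752 and 0.831 at 30 min, 0.841, 0.901 and 0.888 at 60 min and 0.769, 0.675 and 0.888 at 90 min, against 1.03, 1.06 and 0.913 in sham. Atg4d, with log2 fold changes of -0.37 to -0.03, was lower than every sham array in 9 of 9 ischemic young arrays but in 3 of 9 adult arrays. Its difference between the ages at 90 min was 0.34, with a 95% interval of 0.06 to 0.62 and an adjusted p of 0.431. Atg4c had the widest range of the proteases, from -0.60 in adults at 90 min (adjusted p = 0.125) to 0.02 in young mice at 90 min.

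Members of the Atg8 family, the proteins that decorate the autophagosome and hold cargo receptors, were not alike. Map1lc3b, which encodes the protein followed as LC3 in most autophagy assays, had adult ratios of 0.643, 0.676 and 0.848 at 30 min, 1.04, 0.71 and 0.624 at 60 min and 0.737, 0.652 and 0.695 at 90 min, against 1.15, 0.785 and 1.06 in sham. Its young ratios were 0.664, 0.77 and 0.524 at 30 min, 0.637, 0.9 and 0.749 at 60 min and 0.665, 0.797 and 0.603 at 90 min, against 0.972, 1.07 and 0.958 in sham. Of the 18 ischemic arrays, 16 had less Map1lc3b than every sham array of their age. The log2 fold change ran from -0.63 in young mice at 30 min (adjusted p = 0.226) to -0.35 in adults at 60 min, and no single comparison passed. For the whole family 0 of 30 tests passed in limma and 10 had an unadjusted p under 0.05. Beside them, 8.36% to 33.3% of all genes had such a p in a comparison, and tests that share sham arrays are not independent. Map1lc3a, the close relative, had adult ratios of 1.02, 0.927 and 1.01 at 30 min, 0.947, 1.03 and 0.886 at 60 min and 1.13, 1.06 and 0.996 at 90 min, against 1.07, 0.939 and 0.988 in sham. In young mice Map1lc3a had 0.86, 0.987 and 0.987 at 30 min, 0.88, 0.964 and 0.954 at 60 min and 0.965, 0.941 and 0.884 at 90 min, against 0.867, 1.01 and 1.12 in sham. Map1lc3a thus stayed within -0.10 to 0.09 on the log2 scale, and its groups overlapped in all 6 comparisons.

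The GABARAP branch of the family was lower in ischemic liver to a differing extent. Gabarapl1 had adult ratios of 0.715, 0.667 and 0.803 at 30 min, 1.1, 0.777 and 0.644 at 60 min and 0.848, 0.622 and 0.849 at 90 min, against 1.21, 0.825 and 0.962 in sham. Its young ratios were 0.677, 0.739 and 0.656 at 30 min, 0.658, 0.89 and 0.913 at 60 min and 0.559, 0.83 and 0.745 at 90 min, against 0.916, 1.07 and 1.01 in sham. The young groups did not overlap at any time, and 6 of 9 ischemic adult arrays were lower than every adult sham array. Gabarap had adult ratios of 0.844, 0.839 and 0.884 at 30 min, 0.875, 0.837 and 0.645 at 60 min and 0.786, 0.84 and 0.7 at 90 min, all lower than the sham values of 1.04, 1.01 and 0.943. In young mice Gabarap had 0.924, 0.985 and 0.79 at 30 min, 0.902, 1.03 and 0.801 at 60 min and 1.01, 1.05 and 0.746 at 90 min, against 0.891, 1.08 and 1.03 in sham. These young groups overlapped at every time, and the difference between the ages did not pass at any (-0.26 at 90 min, 95% interval -0.66 to 0.13). Gabarapl2 had adult ratios of 0.882, 0.764 and 1.13 at 30 min, 0.826, 0.976 and 0.804 at 60 min and 0.971, 0.89 and 0.803 at 90 min, against 1.08, 1.01 and 0.911 in sham. In young mice Gabarapl2 had 0.859, 0.857 and 0.844 at 30 min, 0.825, 0.755 and 0.972 at 60 min and 0.91, 0.942 and 0.815 at 90 min, against 1.00, 0.861 and 1.14 in sham. Its log2 fold changes of -0.23 to -0.13 were smaller than those of Gabarapl1, which ran from -0.53 to -0.27.

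**Figure D3:**
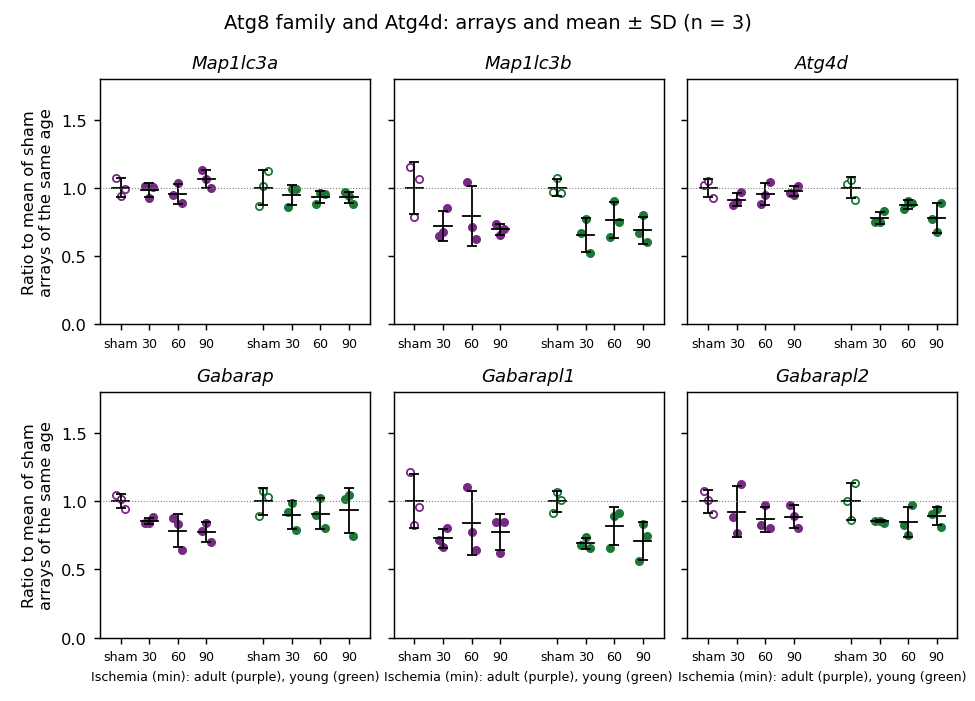
Ratio to the sham mean of that age (y axis) for every array of the 5 Atg8-family genes and the protease Atg4d, by ischemia time in min (x axis), adult mice in purple on the left and young mice in green on the right, sham as open circles, bars as mean ± SD (n = 3). Map1lc3b and Gabarapl1 sit lower than sham in most ischemic arrays, while Map1lc3a stays between 0.86 and 1.13.

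Sqstm1, the cargo receptor also called p62, which is itself degraded by autophagy, had the most arrays lower than sham. Sqstm1 ratios in adults were 0.721, 0.752 and 0.976 at 30 min, 0.837, 0.663 and 0.56 at 60 min and 0.724, 0.667 and 0.684 at 90 min, against 0.999, 0.848 and 1.15 in sham. In young mice they were 0.715, 0.786 and 0.781 at 30 min, 0.726, 0.784 and 0.872 at 60 min and 0.756, 0.799 and 0.667 at 90 min, against 0.911, 0.943 and 1.15 in sham. Lower than every sham array of the same age were 17 of 18 ischemic arrays, and the remaining array was adult at 30 min. Sqstm1 fell in adults by 0.55 ± 0.14 on the log2 scale at 60 min (SE; adjusted p = 0.0313) and by 0.52 ± 0.14 at 90 min (adjusted p = 0.0353). Young values were -0.39 (adjusted p = 0.400), -0.33 (0.445) and -0.43 (0.267) at 30, 60 and 90 min, and the differences between the ages did not pass (-0.22 at 60 min, 95% interval -0.64 to 0.20, and -0.09 at 90 min, -0.51 to 0.33).

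Tfeb was the one member that rose. Its adult ratios were 1.33, 1.29 and 1.08 at 30 min, 1.47, 1.58 and 1.34 at 60 min and 1.17, 1.2 and 1.43 at 90 min, against 0.88, 1.25 and 0.867 in sham. In young mice Tfeb had 1.16, 1.06 and 1.12 at 30 min, 1.06, 1.08 and 1.14 at 60 min and 1.13, 1.06 and 1.3 at 90 min, against 1.15, 1.15 and 0.693 in sham. Adult arrays at 60 min did not overlap adult sham, whereas the ischemic young arrays exceeded the third sham array and lay close to the other two. Tfeb rose in adults at 60 min by 0.57 ± 0.16 on the log2 scale (SE; adjusted p = 0.0364). At 90 min in adults it was 0.36 (adjusted p = 0.157), and in young mice it lay between 0.17 and 0.25. The difference between the ages at 60 min was 0.40, with a 95% interval of -0.08 to 0.89, and did not pass.

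The adult calls depended on single arrays and on scaling. At 60 min, 0 of the 4 calls (Atg3, Atg12, Sqstm1 and Tfeb) were made without adult sham replicate 1 or 3, or without replicate 2 or 3 of adults at 60 min, and 7 members passed without replicate 1 of adults at 60 min. At 90 min, 0 members passed without adult sham replicate 1 or 3 or without any 1 of the 3 ischemic arrays, and 3 passed without adult sham replicate 2. The signs held throughout: adult Atg12 stayed between -0.46 and -0.42 at 60 min and between -0.43 and -0.37 at 90 min, and Sqstm1 between -0.70 and -0.41 and between -0.64 and -0.41. Quantile normalization, which gives every array the same distribution of ratios, left 0 members in each adult comparison. It left 0 genes of all 14351 passing at 60 min and 3 at 90 min, compared with 1712 and 1069 otherwise. The members' median was then -0.06 at 60 min and at 90 min, and the called members kept their sign, with Atg12 at -0.25 and -0.24, Sqstm1 at -0.30 and -0.31, Atg3 at -0.20 and Tfeb at 0.56.

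Since single groups hold 3 arrays, the 3 ischemia times were also averaged, a comparison added after the values were seen. In adults 3 members fell, Atg12 by 0.36 ± 0.08 (SE; adjusted p = 0.0213), Becn1 by 0.36 ± 0.12 (0.0491) and Sqstm1 by 0.46 ± 0.12 (0.0285), beside 10.7% of all genes passing. In young mice Atg14 fell by 0.69 ± 0.13 (SE; adjusted p = 0.0228), beside 0.404% of all genes. Over both ages, 18 ischemic arrays against 6 sham arrays, 10 of 32 members passed (31.2%), beside 14.9% of all genes. Of the lipid kinase complex, 4 of 5 measured members fell: Atg14 by 0.53 ± 0.09 (adjusted p = 0.00351), Pik3c3 by 0.36 ± 0.10 (0.0252), Uvrag by 0.34 ± 0.09 (0.0172) and Becn1 by 0.27 ± 0.08 (0.0352). Of the Atg8 family, 2 of 5 fell, Map1lc3b by 0.48 ± 0.11 (adjusted p = 0.00946) and Gabarapl1 by 0.40 ± 0.11 (0.0212), while Gabarap had -0.23 (0.0540) and Gabarapl2 -0.19 (0.0933). Atg12 fell by 0.25 ± 0.05 (adjusted p = 0.00910), Atg4d by 0.19 ± 0.05 (0.0274) and Sqstm1 by 0.42 ± 0.08 (0.00613), and Tfeb rose by 0.31 ± 0.09 (0.0351). None of the 5 measured members of the initiating kinase complex passed, Ulk1 being at -0.35 with a 95% interval of -0.67 to -0.03 (adjusted p = 0.117).

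With any 1 of the 24 arrays left out, Atg12, Atg14, Map1lc3b and Sqstm1 still passed in this average over ages and times. The other 6 members were lost without at least 1 array: without adult sham replicate 1, 4 members passed, and 6 passed when adult sham replicate 3 or young sham replicate 3 was left out. Tfeb moved most, to 0.19 without young sham replicate 3 (adjusted p = 0.174). In the adult average 0 members passed without adult sham replicate 1 or 3, and 12 passed without replicate 3 of adults at 30 min. Becn1 in that average kept its call without replicate 3 of adults at 30 min or replicate 1 at 60 min, and lost it without any other of the 12 adult arrays (adjusted p up to 0.184). In the young average Atg14 lost its call without any 1 of the 3 young sham arrays (adjusted p = 0.0612, 0.0952 and 0.151) and with the title code as a block (0.0841). After quantile normalization 0 members passed in the average of either age. Over both ages 120 of all genes then passed, with 2 members among them, Atg14 and Map1lc3b, and with Sqstm1 at -0.31 (adjusted p = 0.0679).

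Each sample title holds a code whose first part is shared by arrays of several groups of the same age, and the labels do not say what it marks. No code held both adult and young arrays, so the codes and the ages cannot be told apart. Of 7 such codes, 6 had 1 sham array each, and the remaining code held 3 young ischemic arrays and no sham array, so that 15 of the 18 ischemic arrays could be used. When the ischemic arrays of a code were set against its own sham array, 5 members were lower in all 6 codes: Atg14, Uvrag, Map1lc3b, Gabarapl1 and Sqstm1. That is 5 of 32 members, beside 6.62% of all genes. For Atg14 the 6 differences ran from -1.08 to -0.10 on the log2 scale, for Map1lc3b from -0.67 to -0.15 and for Sqstm1 from -0.71 to -0.20. Tfeb was higher in 5 of 6 codes, from -0.11 to 0.67.

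**Figure D4:**
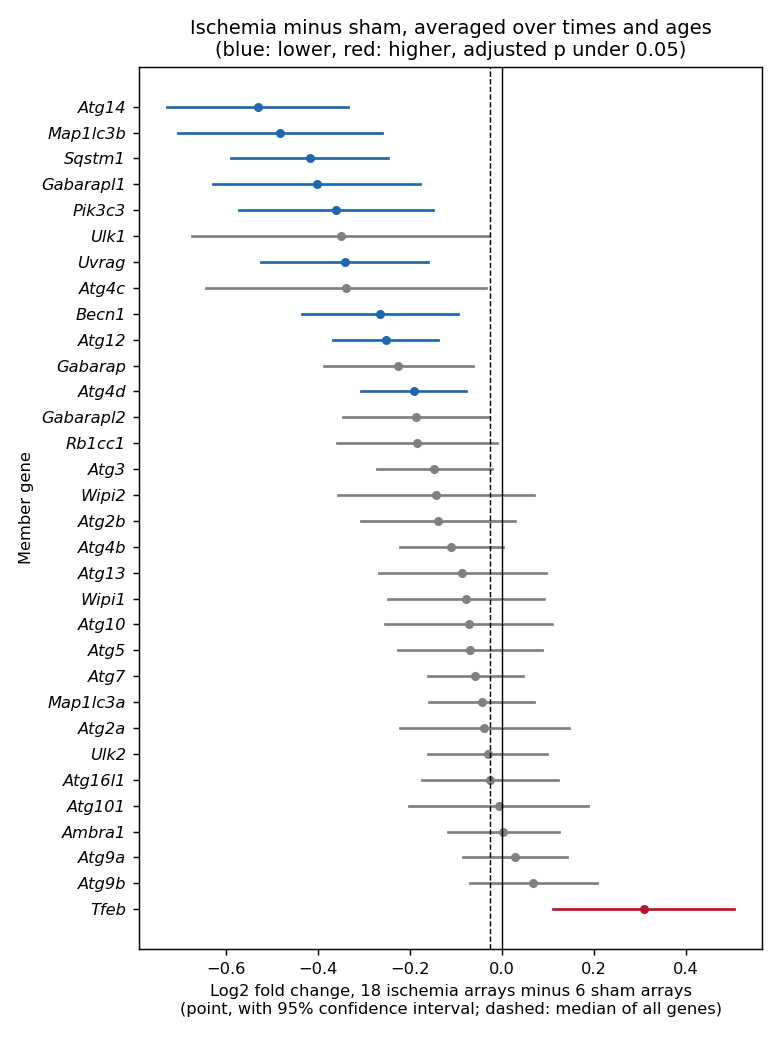
Log2 fold change of each of the 32 members (y axis, sorted) for 18 ischemic arrays minus 6 sham arrays, averaged over times and ages (x axis), with 95% confidence intervals from limma; blue and red mark members that fell or rose at an adjusted p under 0.05, and the dashed line is the median of all genes at -0.03. Atg14 is lowest at -0.53, and Tfeb is highest at 0.31.

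Between ischemia times, 0 members passed and 0% of all genes passed in each of the 4 comparisons of neighbouring times. At an unadjusted p under 0.05 there were 5 members between 60 and 30 min and 0 between 90 and 60 min in adults, and 3 and 3 in young mice, that is 15.6%, 0%, 9.38% and 9.38% of the members, against 8.78%, 3.19%, 5.16% and 9.33% of all genes. Ulk1 was among them, with a difference between 60 and 30 min in adults of 0.72 (95% interval 0.16 to 1.28, adjusted p = 0.563). Atg14 was also among them, at 0.43 between 60 and 30 min in young mice (0.09 to 0.77, adjusted p = 0.961). The adult response minus the young response gave 0 members and 0% of all genes at each time by limma, with 0, 1 (3.12%) and 3 members (9.38%) at an unadjusted p under 0.05 at 30, 60 and 90 min, against 2.1%, 6.81% and 11.2% of all genes, so that the members' shares lay below those of all genes at each time. Besides Atg12 and Atg4d, given above, Atg101 was among these, at -0.51 at 90 min (95% interval -0.98 to -0.03, adjusted p = 0.439). For Atg14 the adult minus young difference at 30 min was 0.44, with an interval of -0.04 to 0.92, and for Map1lc3b it was 0.17, with an interval of -0.37 to 0.71.

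Genes around the core machinery were counted in lists, over both ages and all times, beside the same 14.9% of all genes. Among genes of the lysosome, where autophagosomes end, 15 of 39 measured fell and 0 rose, with a list median of -0.21. They included the proton pump subunits Atp6v1c1 (-0.40 ± 0.09, SE; adjusted p = 0.00911), Atp6v1f (-0.39 ± 0.10; 0.0203) and Atp6v1b2 (-0.39 ± 0.08; 0.00823), and the cathepsin Ctsl (-0.38 ± 0.10; 0.0223). In adults 7 of the lysosome genes fell at 60 min and 8 at 90 min, beside 11.9% and 7.45% of all genes in these comparisons. Selective receptors other than Sqstm1 gave 3 of 17 that fell: Stbd1, a receptor for glycogen (-0.74 ± 0.13), Retreg1, one for endoplasmic reticulum (-0.66 ± 0.18), and Bnip3l, one for mitochondria (-0.44 ± 0.08). Membrane source and fusion genes gave 5 of 21 that fell, among them Vmp1 (-0.35 ± 0.09), needed for autophagosome formation, and Vps41 (-0.32 ± 0.07), a subunit of the tether that joins membranes to lysosomes.

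Signalling to autophagy was mixed, with 3 of 28 members up and 4 down. Prkaa2, which encodes a kinase subunit of AMPK, a sensor of low energy, rose by 0.61 ± 0.09 (SE; adjusted p = 0.000869), and Sesn3, which restrains the growth kinase mTORC1, rose by 0.54 ± 0.15 (0.0223). Sesn1 fell by 0.55 ± 0.14 (adjusted p = 0.0184) and Fnip1, a partner of folliculin, fell by 0.50 ± 0.11 (0.00918). Of 13 transcription factors of autophagy and lysosome genes other than Tfeb, 0 rose and 1 fell. This was Xbp1, a factor of the unfolded protein response, which fell by 0.42 ± 0.13 (adjusted p = 0.0385 by limma). Values above 0 were found for 9 of the 13, against 6159 of 14351 genes. At 30, 60 and 90 min they were found for 9, 11 and 10 of the 13 in young mice and for 6, 5 and 9 in adults.

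Markers of other liver cells moved in the same arrays. The 12 measured Kupffer cell markers, genes of the resident macrophages of the liver, averaged ratios of 0.521 to 0.801 at 30 min, 0.507 to 0.866 at 60 min and 0.322 to 0.500 at 90 min in adult arrays, against 0.746 to 1.45 in adult sham. In adults at 90 min 11 of the 12 fell, beside 7.45% of all genes, with a list median of -1.23. In young mice they averaged 0.784 to 1.07, 0.563 to 0.799 and 0.647 to 0.902, against 0.894 to 1.20 in sham. Of the 12 hepatocyte markers 1 passed the threshold in adults, Hnf4a at 90 min, downward, beside 7.45% of all genes. They averaged 0.831 to 0.939, 0.665 to 0.944 and 0.718 to 0.896 in adults, against 0.955 to 1.04 in sham. In young mice they averaged 0.816 to 0.959, 0.837 to 0.983 and 0.823 to 1.00, against 0.923 to 1.06 in sham. All 12 hepatocyte markers had values below 0 in adults at each time, with list medians of -0.14, -0.30 and -0.22. In young mice 11, 12 and 11 of them did, with list medians of -0.13, -0.04 and -0.07. The 12 hepatic stellate cell markers averaged 0.670 to 0.765 in young mice at 90 min, against 0.922 to 1.09 in young sham. Of these, 4 fell, beside 0.181% of all genes. In adults at 90 min they averaged 0.863 to 1.01, against 0.961 to 1.04 in adult sham, and 2 fell, Rgs5 and Colec11, beside 7.45% of all genes. The 12 endothelial markers had medians of -0.11, -0.21 and -0.27 in adults and -0.14, -0.19 and -0.10 in young mice, and 1 fell, Stab2 in adults at 90 min. Medians for 10 T and NK cell markers were 0.16, 0.16 and 0.12 in adults and -0.02, 0.05 and -0.01 in young mice, and those of 3 B cell markers were 0.45, 0.34 and 0.12 and -0.01, 0.00 and 0.09. The 8 neutrophil and 6 cholangiocyte markers had medians between -0.07 and 0.00 in all 6 comparisons. The part of these cell types in the values of the autophagy genes was not tested.

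**Figure D5:**
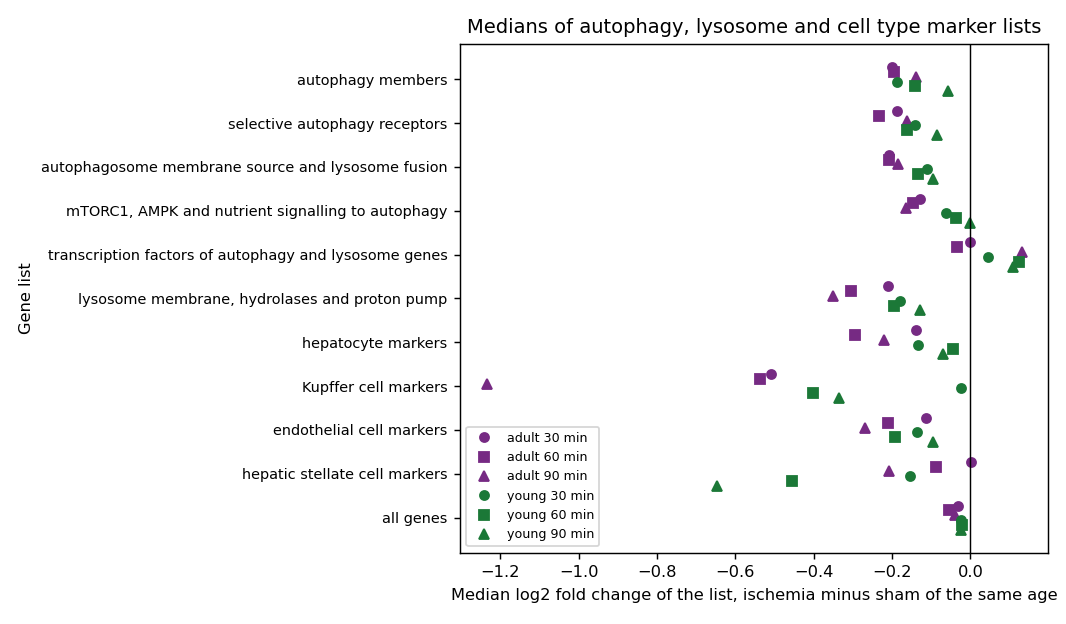
Median log2 fold change against sham of the same age (x axis) of the autophagy members, of 5 lists of related genes, of 4 cell type marker lists and of all genes (y axis), for adults in purple and young mice in green at 30, 60 and 90 min. The autophagy members lie between -0.20 and -0.06, the lysosome list between -0.35 and -0.13, and the Kupffer cell list reaches -1.23 in adults at 90 min.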

How the data were processed

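Liver RNA of 24 samples in 8 groups was measured on Affymetrix expression arrays. Per the submitters' processing notes the authors used RMA, which summarises probes into probe sets; its version and any genome build are not given in the sources used here. The deposited values are linear ratios of each probe set to the arithmetic mean of 3 age-matched sham arrays, per the values themselves (the sham mean was 1 for every probe set). Array brightness was not kept, so filters on dim probe sets and a comparison of adult with young sham were not possible. From the deposited ratios, log2 values were computed here. Of 26180 probe sets, 15228 had 1 gene symbol in the supplied table and 10952 had none; for 661 genes with several probe sets, 1 was chosen by accession type and number, which left 14351 genes. Each group holds 3 arrays, and their number limits the precision of a value.

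A model with a mean for each of the 8 groups was fitted to the log2 ratios with limma 3.58.1 in R 4.3.3 (16 residual and 4.53 prior degrees of freedom); p-values are two-sided, adjusted by Benjamini-Hochberg over all genes within each of 13 planned comparisons, and 3 averages over ischemia times were added after the data were seen. The threshold was an adjusted p of 0.05. The members, the lists around them and the tests were chosen with earlier results of these data known. Named members follow a rule: every member that passed in a planned comparison, the 5 Atg8-family genes, Ulk1, Becn1, Sqstm1 and Tfeb have a value for each array, and other members a range; of each list, up to 4 called genes with the largest change are named. Values in each array of Atg9a, Pik3c3, Uvrag and Atg4d were added after they were seen. The fit was tested on simulated data with independent noise for each gene and planted changes larger than those of the members. Shifts shared by a whole array were not simulated, so that test does not bear on how the calls depend on arrays or scaling. Replicates were numbered in accession order, which pairs nothing. Alternatives were quantile normalization, the linear ratio, arrays centred on their median, every probe set on its own, arrays of 1 age only, a robust prior, a block by the leading part of the title code, and each array left out in turn. Promoter windows were searched for fixed letter strings on both strands.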

Additional observations from a re-analysis of the deposited data

Results flagged for a closer look

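At 60 min, every adult array had more and every young array had less Atg2a, which carries lipid into the autophagosome membrane, than the sham mean of its age. The adult ratios were 1.24, 1.03 and 1.12 and the young ratios were 0.975, 0.905 and 0.978. The adult minus young difference of the log2 response was 0.27 (95% interval -0.18 to 0.72, adjusted p = 0.742 by limma), which did not pass.

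At 90 min, every adult array had less and every young array had more of its relative Atg2b than the sham mean of its age. The adult ratios were 0.919, 0.884 and 0.968 and the young ratios were 1.06, 1.11 and 1.01. The adult minus young difference of the log2 response was -0.20 (95% interval -0.61 to 0.21, adjusted p = 0.654 by limma), which did not pass.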

How the results depend on the processing

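Each member's value that passed in a comparison with sham kept its direction under every alternative that was run, and the counts of members past the threshold moved. Among values at single times that did not pass, those of several members turned above 0 after quantile normalization or centring. Values of Atg4d and Atg13 reached 0.01. Quantile normalization took Atg5, Atg4b and Map1lc3a from 5 to 3 comparisons below 0, and Atg16l1 from 3 to 1. The members' median between 60 and 30 min in adults, -0.04 as deposited, was 0.03 after quantile normalization. After quantile normalization 0 members passed in adults at 60 min, in adults at 90 min, in young mice at 30 min and in the averages over times of either age, and 2 passed in the average over both ages. On the linear ratio 2 passed in adults at 60 min, 1 in adults at 90 min and 0 in young mice at 30 min. With arrays of the same age only, 1 passed in adults at 60 min, 0 at 90 min and 0 in the adult average. With the replicate block, the first part of the title code, 5 passed in the adult average and 0 in the young average; the labels do not state that this code pairs samples, and the block changed no other count by over 1.5 times. Centring arrays on their median, every probe set on its own and a robust prior changed no count by over 1.5 times. Leaving out 1 array at a time gave 0 to 7 members in adults at 60 min, 0 to 3 in adults at 90 min, 0 to 1 in young mice at 30 min and at 90 min, 0 to 12 in the adult average, 0 to 2 in the young average and 4 to 14 over both ages. All genes past the threshold then ranged from 1 to 2177 in adults at 60 min, from 7 to 806 in adults at 90 min and from 467 to 3760 over both ages. The causes of these shifts were not tested. Groups of 3 arrays and ratios without brightness limit what the calls can carry.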
